A study of Mus musculus with 21 samples.

Results

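Neuro2a cells that had received a guide RNA plasmid together with a plasmid for sadCas9-VP64, a catalytically dead Cas9 fused to the VP64 transcriptional activator, were compared between library set 7 and library set 8. The members are the 6 guide-treated libraries of the 21 mouse samples in the series, 3 in set 7 (replicates 1 to 3) and 3 in set 8 (replicates 4 to 6), chosen by the leading number of the library name. Neuro2a is a mouse neuroblastoma line with sympathetic features. For each of the 6 libraries the cells were given 750 ng of each plasmid, and the labels give no treatment that differs between the sets. A further 6 Neuro2a libraries, 3 per set, came from cells given 750 ng of the sadCas9-VP64 plasmid and no guide plasmid (activator-only). They show whether a set difference was also seen in such cells. The arms differ in total plasmid as well, so the guide RNA, the rest of its plasmid and the plasmid amount cannot be told apart. Below, with and without the guide stand for these plasmid mixes. The labels do not say what the set number stands for, so cell passage, transfection, library preparation and sequencing cannot be told apart as sources of a set difference. They also do not say that replicates came from separate cultures, so p-values measure the spread between these libraries, which may be technical.

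In CRISPR activation, a guide RNA brings a dead Cas9 and its activation domain to a promoter, and transcription of the gene next to it can rise. Plasmid transfection places foreign DNA in the cytosol, where it can be sensed, and interferon-stimulated genes are a well known read-out of such sensing. Proliferating neuroblastoma cells also keep up DNA replication, ribosome production and sterol synthesis, which are set transcriptionally by E2F, Myc and SREBP factors.

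The guide-treated libraries held 15.5 to 18 M reads (M, 1e+06) by estimate, and levels are counts per M reads (CPM). Of 22 sympathetic and neuroblastoma markers, 20 passed the filter on low values and 16 were above 10 CPM in all 6 libraries, among them Hand2, Gata2 and Ret. Hand1 was at most 0.063 CPM. Of 12 macrophage and microglia markers, 2 passed the filter, and their summed level was 1.096 to 1.77 CPM in set 7 and 1.24 to 2.53 CPM in set 8. Of the glial list 3 of 14 members passed the filter, and its sum was 21.4 to 22.3 CPM in set 7 and 34.1 to 34.9 CPM in set 8, of which Erbb3 made up most while Slc1a3 was listed at 0 in all 6 libraries. The epithelial and endothelial list had 4 of 10 members past the filter and sums of 20.3 to 23.9 and 13.98 to 16.6 CPM, with Kdr listed at 0 in all 6. The fibroblast list had 7 of 13 past the filter and sums of 1603 to 1707 and 1674 to 1971 CPM, carried by Vim, which neuroblastoma cells also express. The libraries separated by set along a first principal component with 66.1% of the variance. Rn18s-rs5, an 18S ribosomal RNA feature, stood apart in 1 library, at 1339 CPM in replicate 3 of set 7 against 3277 to 5104 CPM in the other 5.

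Both plasmid transcripts were higher in set 7. The sadCas9Vp64 feature was at 1683, 2093 and 2154 CPM in guide-treated set 7 libraries and 563.6, 604.2 and 631.8 CPM in set 8 ones. The McherryPuro feature, which is read in the guide-treated libraries only, was at 4626, 5782 and 5481 CPM in set 7 and 1574, 1680 and 1927 CPM in set 8. The sets did not overlap for either feature, and the ratio of McherryPuro to sadCas9Vp64 was 2.54 to 3.05 in all 6 libraries. Activator-only libraries had sadCas9Vp64 at 2497 to 2646 CPM in set 7 and 318 to 369.8 CPM in set 8, and McherryPuro was listed at 0 in all 6. These levels are given as a description, without a test. Any endogenous difference between the guide-treated sets runs alongside this difference in plasmid transcripts. The set gap in sadCas9Vp64 was wider in activator-only libraries, at means of 2550 and 349.2 CPM, than in guide-treated ones, at 1977 and 599.8 CPM. A set difference that is unlike in the 2 arms therefore runs alongside an unequal plasmid gap. The part of the plasmid transcripts in either was not tested.

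**Figure D1:**
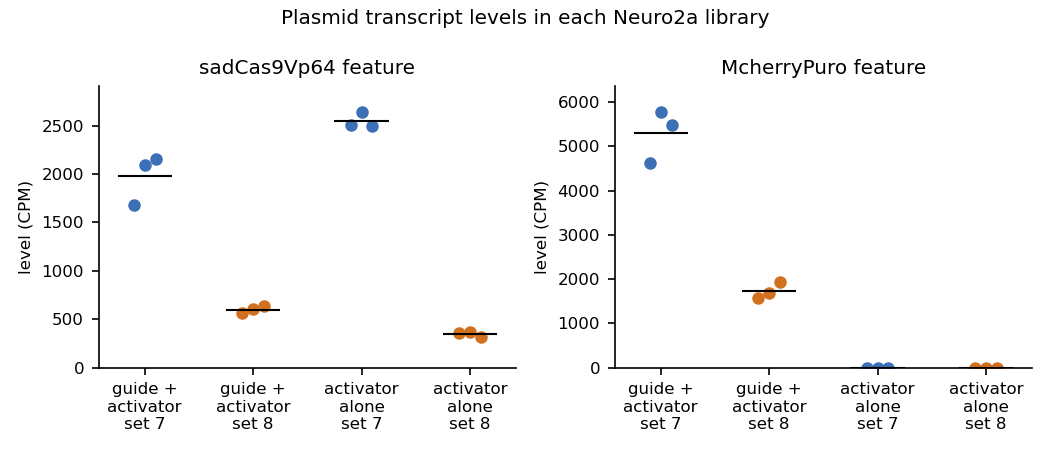
Levels of the sadCas9Vp64 feature (left) and the McherryPuro feature (right) in CPM, 1 point per library and a line at the mean of each group of 3. Set 7 lies above set 8 for both features in guide-treated libraries, 1977 against 599.8 CPM on average for sadCas9Vp64.

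Differences are given as set 8 minus set 7 of log2(CPM + 0.5), a scale that understates the change of low genes, with the standard error (SE) and Benjamini-Hochberg adjusted p of limma over all genes tested. Levels written with ± are means and SD of 3 libraries. Of 14766 genes tested, 7777 (52.7%) passed an adjusted p of 0.05, 2988 (20.2%) higher in set 8 and 4789 (32.4%) lower. With median-of-ratios scaling the same test called 3815 higher and 3686 lower, and with quantile scaling 3706 and 3779, so the surplus of lower genes depended on the scaling. The median difference over all genes was -0.083. Groups did not overlap for 8758 genes (59.3%), 3411 higher (23.1%) and 5347 lower (36.2%). A difference of at least 2-fold that passed was seen for 224 genes higher (1.52%) and 393 lower (2.66%). The difference between the arms is the set difference in guide-treated libraries minus that in activator-only libraries, and it is above 0 where set 8 stood relatively higher with the guide. It passed for 3132 of 14398 genes (21.8%), 1357 above 0 (9.42%) and 1775 below (12.3%), and for 1793 and 1281 with median-of-ratios scaling or 1534 and 1428 with quantile scaling.

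**Figure D2:**
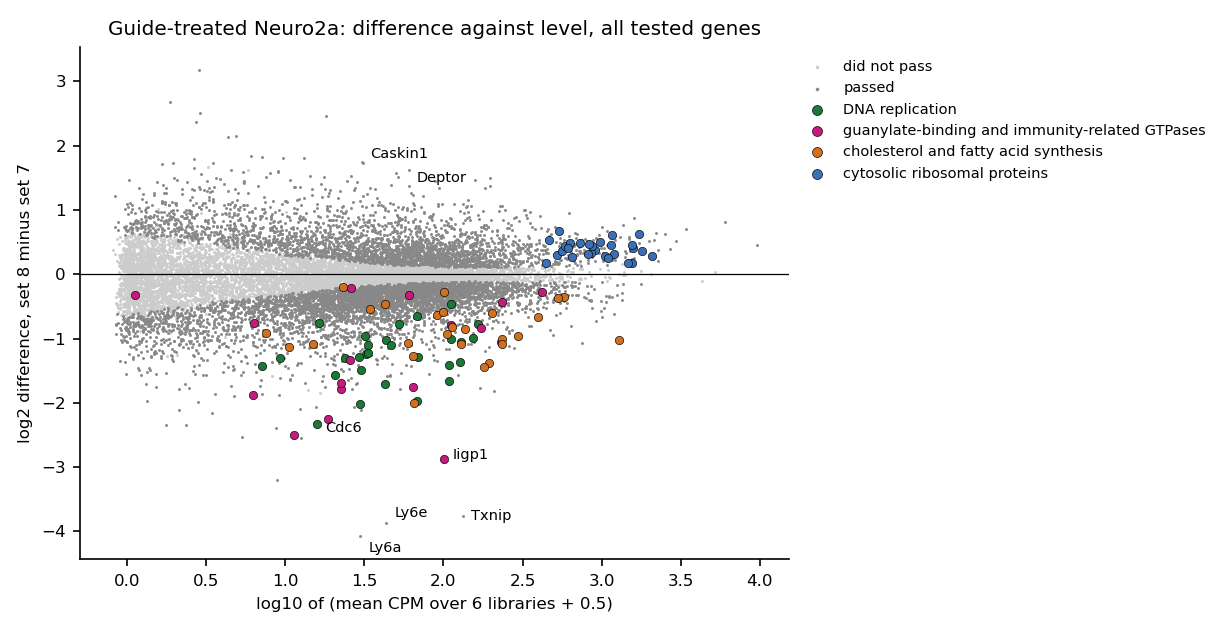
Each tested gene by its mean level in the 6 guide-treated libraries (horizontal axis, log10) and its log2 difference, set 8 minus set 7 (vertical axis), grey by whether it passed, with members of 4 lists coloured. The DNA replication, sterol and GTPase members lie below 0 and the 28 ribosomal protein members above it.

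The machinery of DNA replication was lower in set 8. All 28 tested members of the list fell, against 32.4% of all genes, with differences of -2.33 to -0.47 and a median of -1.26 where that of all genes was -0.083. Mcm5, a subunit of the MCM helicase that unwinds DNA at origins, was at 143, 166 and 181 CPM in set 7 and 50.9, 51.9 and 50.2 CPM in set 8. The difference was -1.66 (SE 0.069, adjusted p = 9.4e-11), and the highest library of set 8 lay well below the lowest of set 7. Its partners Mcm4 and Mcm6 fell from 109 ± 14.6 to 27.3 ± 1.34 CPM and from 183 ± 15.96 to 70.5 ± 2.81 CPM, differences of -1.97 (SE 0.081, adjusted p = 9.4e-11) and -1.37 (SE 0.061, adjusted p = 1.8e-10). Cdc6, which loads the helicase onto origins, showed the largest fall of the list, at 21.6, 28.2 and 27.5 CPM in set 7 and 5.29, 4.89 and 3.97 CPM in set 8, with no overlap and a difference of -2.33 (SE 0.13, adjusted p = 1.8e-09). In activator-only libraries 27 members also fell, against 25.9% of all genes there, with a median of -0.70. The fall was larger with the guide, since the difference between the arms was below 0 for 22 of 28 members, against 12.3% of all genes. It was -1.39 (SE 0.21, adjusted p = 0.00012) for Cdc6, -0.65 (adjusted p = 0.00037) for Mcm4, -0.65 (adjusted p = 0.00026) for Mcm5 and -0.66 (adjusted p = 9e-05) for Mcm6.

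The promoters of these genes are shown because the members moved together and E2F sites are known in several of them. RefSeq sequences (build GRCm38.p6) were found for 23 of the 28 members, and 5 of them (21.7%) held TTTGGCGC or TTTCCCGC on either strand in the 250 bases before the start site, against 2.93% of the 10023 tested genes found in the promoter table and 1.51% of all 27025 genes there. In the mitosis list, described next, the same letters were found in 0 of 20 matched genes. The letters were chosen after the values had been seen. Windows of 60 bases follow, 5′ to 3′ in the direction of the gene, with the match in capitals.
Mcm5 (chr8:75109334-75109393, plus strand, match 142 to 149 bases before the start site): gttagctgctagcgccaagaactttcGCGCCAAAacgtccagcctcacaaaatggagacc
Mcm6 (chr1:128359719-128359778, minus strand, match 40 to 47 bases before the start site): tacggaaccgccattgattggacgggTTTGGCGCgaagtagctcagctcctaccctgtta
Cdc6 (chr11:98907987-98908046, plus strand, match 131 to 138 bases before the start site): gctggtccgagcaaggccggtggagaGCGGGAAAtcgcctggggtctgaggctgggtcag
A match is a description of the letters and not evidence of a bound factor.

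Genes of mitosis were mostly lower as well. Of 24 tested members 18 fell and 2 rose, against 32.4% and 20.2% of all genes, with a median of -0.24. Without replicate 1, 3, 4 or 6 only 1 rose. With median-of-ratios scaling 12 fell and 2 rose, where 3686 of all 14695 genes fell and 3815 rose. Mki67, the proliferation antigen Ki-67, fell from 225 ± 10.3 to 152 ± 7.83 CPM, a difference of -0.56 (SE 0.05, adjusted p = 1.9e-07). The mitotic kinesin gene Kif20a differed by -0.46 (adjusted p = 5.8e-06) and Ccna2, which encodes cyclin A2, by -0.40 (adjusted p = 1.2e-05). Cenpf, a kinetochore protein gene, rose from 70.1 ± 4.27 to 87.2 ± 5.46 CPM, with 0.31 (adjusted p = 0.00044), and the difference between the arms was 0.31 (SE 0.095, adjusted p = 0.026). In activator-only libraries 17 members were lower, against 25.9% of all genes there, with a median of -0.23. Of 26 replication-dependent histone genes, whose mRNAs lack a polyA tail and are poorly captured in polyA libraries, 9 passed the filter, 2 of them higher and 2 lower. Their called share of 44.4% was below the 52.7% of all genes.

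Cholesterol and fatty acid synthesis was also lower in set 8. Of 26 tested members 25 fell, against 32.4% of all genes, with a median difference of -0.92. Idi1, the isopentenyl diphosphate isomerase, was at 102, 96.6 and 111 CPM in set 7 and 27.1, 23.5 and 25.3 CPM in set 8. Every library of set 8 lay below those of set 7, with a difference of -2.01 (SE 0.07, adjusted p = 1.9e-11). Cyp51, the lanosterol demethylase, fell from 278 ± 7.03 to 107 ± 7.61 CPM, with -1.38 (adjusted p = 3.9e-11). Among the largest falls of all genes were Acat2, which makes acetoacetyl-CoA, at 49.1, 48.2 and 46.8 CPM in set 7 and 11.7, 9.85 and 10.8 CPM in set 8, and Hsd17b7, a sterol reductase gene, at 40.7, 44.1 and 44.2 CPM in set 7 and 12.1, 9.21 and 8.70 CPM in set 8. They differed by -2.11 (adjusted p = 7.9e-11) and -2.06 (adjusted p = 8.9e-10), with no overlap. In activator-only libraries 22 members fell, against 25.9% of all genes there, with a median of -0.44. The arms differed below 0 for 15 of 26, against 12.3% of all genes. The difference between the arms was -0.98 (adjusted p = 0.0006) for Idi1, -0.97 (adjusted p = 0.0014) for Acat2, -0.84 (adjusted p = 0.0039) for Hsd17b7 and -0.38 (adjusted p = 0.021) for Cyp51. Activator-only libraries of set 7 varied in these genes, with Idi1 at 39.9, 49.5 and 71.3 CPM. Slc25a10, the mitochondrial dicarboxylate carrier gene, is no member of the list and fell among the largest from 19.5 ± 3.54 to 4.16 ± 0.594 CPM, a difference of -2.09 (adjusted p = 1.8e-08) and between the arms of -1.05 (adjusted p = 0.003).

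**Figure D3:**
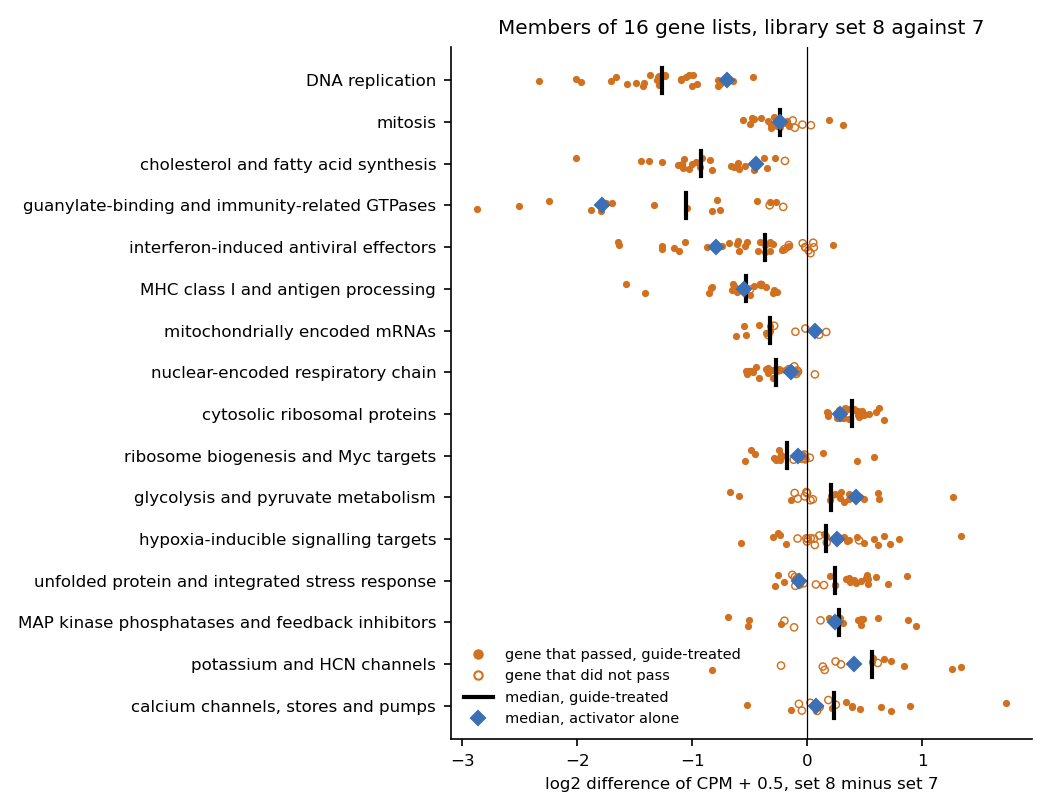
Log2 difference, set 8 minus set 7, of every tested member of 16 lists in guide-treated libraries (points, filled where the gene passed), with the list median (bar) and the median in activator-only libraries (diamond). DNA replication (median -1.26), the GTPases (-1.05) and sterol synthesis (-0.92) lie lowest, and the potassium channels (0.57, or 0.33 without replicate 5) and ribosomal proteins (0.39) highest.

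Interferon-stimulated genes were lower in set 8, with the GTPases furthest from 0. Of 17 tested guanylate-binding proteins and immunity-related GTPases, which attack the compartments of intracellular pathogens, 15 fell, against 32.4% of all genes. Their median was -1.05. Iigp1 was at 194, 149 and 185 CPM in set 7 and 17.6, 26.7 and 27.5 CPM in set 8. The sets did not overlap and the difference was -2.87 (SE 0.13, adjusted p = 2.4e-10). Gbp3 fell from 309.6 ± 9.09 to 149.7 ± 12.9 CPM, a difference of -1.05 (adjusted p = 8.9e-10), and Gbp2 from 34.1 ± 3.40 to 9.51 ± 1.21 CPM, with -1.79 (adjusted p = 2.9e-09). Tgtp1 and Ifi47, which are also interferon-inducible GTPases and rank among the largest falls, were at 19.6, 14.6 and 21.6 and 35.4, 25.4 and 29.7 CPM in set 7. In set 8 they were at 1.55, 5.63 and 2.41 and 4.09, 5.86 and 8.51 CPM, below every library of set 7, and differed by -2.51 (adjusted p = 2e-06) and -2.25 (adjusted p = 7.9e-08). In activator-only libraries 16 members fell, against 25.9% of all genes there, with a larger median of -1.78. The arms differed above 0 for 9 of 16 members, against 9.42% of all genes. The value was 1.74 (SE 0.25, adjusted p = 6.8e-05) for Iigp1, which was at 0.822 to 0.954 CPM in activator-only set 8, and 0.92 (SE 0.097, adjusted p = 1.4e-06) for Gbp3. Members of these families resemble each other in sequence and the treatment of reads with several alignments is not stated, so the split between close copies such as Tgtp1 and Tgtp2 is uncertain.

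The interferon-stimulated response element, searched on both strands as GAAA, any 2 bases and GAAA, was found in the 250 bases before the start site of 10 of 11 matched GTPase genes (90.9%), against 3.16% of tested genes in the RefSeq promoter table (GRCm38.p6) and 3.46% of all genes there. The windows show how alike the sites are, with the match in capitals.
Tgtp1 (chr11:48992289-48992348, minus strand, match 68 to 77 bases before the start site): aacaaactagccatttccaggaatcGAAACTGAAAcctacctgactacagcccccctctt
Tgtp2 (chr11:49064248-49064307, minus strand, match 61 to 70 bases before the start site): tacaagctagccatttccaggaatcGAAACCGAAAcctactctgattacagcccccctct
Igtp (chr11:58199496-58199555, plus strand, match 25 to 34 bases before the start site): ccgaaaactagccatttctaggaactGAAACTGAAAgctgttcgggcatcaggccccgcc
Irgm2 (chr11:58214888-58214947, plus strand, match 55 to 64 bases before the start site): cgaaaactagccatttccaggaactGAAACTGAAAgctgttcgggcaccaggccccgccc
Gbp7 (chr3:142530258-142530317, plus strand, match 44 to 53 bases before the start site): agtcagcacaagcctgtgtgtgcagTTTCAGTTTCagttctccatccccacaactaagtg
Gbp5 (chr3:142496744-142496803, plus strand, match 156 to 165 bases before the start site): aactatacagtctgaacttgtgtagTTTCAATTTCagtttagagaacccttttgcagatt
Among these, the IRG promoters carry the element in the orientation of the gene and the Gbp promoters on the opposite strand. The share was 32.1% among 28 matched antiviral effectors and 17.6% among 17 matched MHC class I genes.

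Most antiviral effectors were lower too, with a list median nearer to 0. Of 37 tested members 27 fell and 1 rose, against 32.4% and 20.2% of all genes, with a median of -0.36. Rsad2, which encodes viperin, was at 856, 781 and 812 CPM in set 7 and 485, 453 and 465 CPM in set 8. The sets did not overlap and it differed by -0.80 (SE 0.045, adjusted p = 1.5e-09). Ifit3 and Mx2, both induced by interferon, fell from 142 ± 4.13 to 63.6 ± 7.07 CPM and from 357 ± 16.3 to 165 ± 20.5 CPM, differences of -1.16 (adjusted p = 1.6e-09) and -1.1154 (adjusted p = 3.2e-09). Ifi27 went the other way from 102 ± 4.79 to 119 ± 7.99 CPM, with 0.22 (adjusted p = 0.0035). The fall of this list was larger without the guide, where 33 members fell, against 25.9% of all genes there, with a median of -0.79. The arms differed above 0 for 23 members and below for 3, against 9.42% and 12.3% of all genes. The values were 0.91 (SE 0.14, adjusted p = 0.00014) for Ifit3 and -0.53 (SE 0.072, adjusted p = 2.7e-05) for Ifi27. Oas2, which makes the activator of RNase L, was at 299.6, 262 and 266 CPM in set 7 and 209.8, 241 and 262 CPM in set 8, a small difference of -0.22 (adjusted p = 0.013) that did not pass without replicate 1 or without replicate 4. In activator-only libraries Oas2 was at 218, 189.7 and 215 CPM in set 7 and 69.8, 66.6 and 59.9 CPM in set 8, and the arms differed by 1.4361 (SE 0.10, adjusted p = 1.9e-08). Phf11d, an interferon-inducible gene, differed by -0.70 (adjusted p = 1.5e-07) with the guide and -2.22 (adjusted p = 9.5e-15) without it, and the arms by 1.52 (SE 0.1, adjusted p = 4.2e-09).

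Sensors and signalling genes of the pathway split. Of 12 tested genes of foreign RNA and DNA sensing 8 fell and 1 rose, against 32.4% and 20.2% of all genes. Their median was -0.39. Zbp1, which binds RNA and DNA in the Z form, was at 66.5, 60.6 and 68.8 CPM in set 7 and 17.9, 22.2 and 24.9 CPM in set 8. The sets did not overlap and the difference was -1.58 (SE 0.097, adjusted p = 3.3e-09), while the arms differed by 1.30 (SE 0.18, adjusted p = 3.4e-05). Tlr3, which detects double-stranded RNA, differed by -0.98 (adjusted p = 8.2e-09) and Dhx58, the RIG-I-like receptor LGP2, by -0.65 (adjusted p = 5.5e-07). The arm test passed for 3 of 12 members above 0 and 2 below, against 9.42% and 12.3% of all genes. Sting1, the adaptor of DNA sensing and the 1 member that rose, stood at 33.0 ± 0.953 CPM in set 7 against 37.6 ± 2.63 CPM in set 8. Its difference of 0.18 (adjusted p = 0.043) did not pass without replicate 1, 2, 5 or 6, and was larger without the guide, at 0.98 (adjusted p = 1.4e-09), with an arm difference of -0.80 (adjusted p = 1.7e-05). Of 17 tested interferon signalling genes 7 fell and 4 rose, against 32.4% and 20.2% of all genes. Their median of -0.053 turned to 0.030 and 0.0096 with median-of-ratios and quantile scaling. The arm test passed for 6 of 17 members above 0 and 3 below, beside the same 9.42% and 12.3%. The transcription factor gene Stat2 fell from 340.3 ± 18.7 to 181 ± 13.7 CPM, a difference of -0.91 (SE 0.056, adjusted p = 3.3e-09), and the arms differed by 0.40 (adjusted p = 0.0067). Irf1 differed by -0.46 (adjusted p = 1.9e-06), with an arm difference of -0.24 (adjusted p = 0.042), and the kinase gene Jak2 rose by 0.46 (adjusted p = 1.2e-05). Irf7, the factor that amplifies type I interferon, was at 290.1, 267 and 262 CPM in set 7 and 208, 219 and 240.0 CPM in set 8, a difference of -0.30 (adjusted p = 0.00032). In activator-only libraries it was at 202, 184 and 201 and 73.2, 71.7 and 70.3 CPM, so that the arms differed by 1.15 (SE 0.075, adjusted p = 4.2e-09).

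Antigen presentation fell as a group and secreted factors were mixed. Of 20 tested MHC class I and antigen processing genes 18 fell, against 32.4% of all genes, with a median of -0.53. The immunoproteasome genes Psmb10, Psmb8 and Psmb9 gave the smallest p-values. Psmb10 was at 109.6, 109 and 109 CPM in set 7 and 57.8, 63.0 and 60.4 CPM in set 8, with no overlap and a difference of -0.85 (SE 0.051, adjusted p = 2.7e-09), while Psmb8 and Psmb9 differed by -0.65 (adjusted p = 1.6e-08) and -1.58 (adjusted p = 3.3e-07). The arm test passed for 4 of 19 members above 0 and 1 below, against 9.42% and 12.3% of all genes. Psmb10 was the 1 below with -0.43 (adjusted p = 0.00065), and activator-only libraries gave the list a median of -0.55. Of 12 tested chemokines and cytokines 5 fell and 2 rose, 1 without replicate 2 or without replicate 4. The called share of 58.3% was near the 52.7% of all genes. Cxcl10, an interferon-induced chemokine, fell from 321 ± 10.2 to 178 ± 12.6 CPM, with -0.85 (adjusted p = 2.7e-09) and an arm difference of -0.44 (adjusted p = 0.004). Csf1, a macrophage growth factor gene, differed by -0.51 (adjusted p = 6.2e-07) and between the arms by -0.34 (adjusted p = 0.0067), and Tnfsf10, which encodes TRAIL, by -1.33 (adjusted p = 5.5e-05). Il6 rose from 43.6 ± 4.65 to 57.3 ± 6.15 CPM, with 0.39 (adjusted p = 0.001), and rose further without the guide, an arm difference of -0.59 (adjusted p = 0.0026). Of 15 NF-kappaB subunits and feedback genes 3 rose and 4 fell, a called share of 46.7% that is below the 52.7% of all genes.

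Ly6a and Ly6e, both GPI-anchored surface proteins that interferon can induce, showed the largest falls of all genes that passed. Ly6a was at 48.8, 55.0 and 62.7 CPM in set 7 and 1.196, 3.67 and 4.67 CPM in set 8. Ly6e was at 84.2, 75.8 and 80.5 CPM in set 7 and 2.58, 6.40 and 7.30 CPM in set 8. No library of set 8 came near those of set 7, and the differences were -4.07 (SE 0.27, adjusted p = 8.2e-09) and -3.87 (SE 0.23, adjusted p = 2.2e-09). In activator-only libraries Ly6a was at 2.87, 3.05 and 4.96 CPM in set 7 and 0, 0.119 and 0 CPM in set 8. The arm difference of Ly6a, -1.16 (adjusted p = 0.045), turned to 0.52 with a pseudocount of 0.1 and did not pass in most alternatives.

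Translation genes rose in set 8. All 28 tested cytosolic ribosomal protein genes were higher, against 20.2% of all genes, with differences of 0.17 to 0.67 and a median of 0.39; with quantile scaling 24 of them passed. Rpl3 was at 927, 914 and 927 CPM in set 7 and 1403, 1384 and 1419 CPM in set 8. Rpl23 and Rpl5 rose from 416 ± 11.2 to 664 ± 31.6 CPM and from 1352 ± 27.4 to 2088 ± 78.1 CPM. None of these genes overlapped between the sets, and the differences were 0.60 (SE 0.04, adjusted p = 7.2e-09), 0.67 (adjusted p = 7.2e-09) and 0.63 (adjusted p = 1.6e-08). The same 28 rose in activator-only libraries, against 19.9% of all genes there, with a median of 0.29. The arms differed above 0 for 2 of 28, a share near the 9.42% of all genes. These were Rpl3, by 0.25 (adjusted p = 0.0038), and Rpl5, by 0.20 (adjusted p = 0.019). The elongation factor genes Eef1a1 and Eef2, the highest endogenous genes that passed, stood at 8153, 8028 and 8215 CPM in set 7 and 11166, 11202 and 10995 CPM in set 8 and 4562, 4449 and 4110.3 CPM in set 7 and 7442, 7809.6 and 7901 CPM in set 8. They differed by 0.45 (SE 0.053, adjusted p = 3.1e-06) and 0.82 (SE 0.055, adjusted p = 8.3e-09) with no overlap, although Eef1a1 did not pass with quantile scaling, and the arms differed by 0.30 (adjusted p = 0.0062) for Eef2. More ribosome assembly genes went the other way. Of 22 tested members of the ribosome biogenesis and Myc target list 11 fell and 3 rose, against 32.4% and 20.2% of all genes. Nop56, a box C/D snoRNP protein, differed by -0.54 (adjusted p = 2.9e-07), Odc1, the ornithine decarboxylase, by -0.49 (adjusted p = 7.8e-07) and Utp4, a processome subunit, by -0.28 (adjusted p = 2.9e-05), while Npm1, which encodes nucleophosmin, rose from 1198 ± 63.0 to 1796 ± 82.9 CPM, with 0.58 (adjusted p = 1.1e-07). Of this list 2 members passed the arm test above 0 and 3 below, near the 9.42% and 12.3% of all genes. The values were -0.50 (adjusted p = 1.5e-05) for Odc1 and 0.21 (adjusted p = 0.029) for Npm1. The snoRNA host genes Snhg12, Snhg1 and Gas5, read in the list of nuclear retained and splicing-linked RNAs, rose as well. Snhg12 was at 113, 108 and 107 CPM in set 7 and 291, 293 and 271 CPM in set 8, a difference of 1.38 (SE 0.046, adjusted p = 1.3e-11) with no overlap, and Snhg1 and Gas5 differed by 1.00 (adjusted p = 2.8e-10) and 0.54 (adjusted p = 1.2e-06). The arms differed by 0.61 (adjusted p = 0.00032) for Snhg12 and 0.49 (adjusted p = 0.00032) for Snhg1. Neat1, the paraspeckle RNA, fell from 28.02 ± 2.65 to 10.9 ± 1.30 CPM, with -1.32 (adjusted p = 6.4e-08) and an arm difference of -0.71 (adjusted p = 0.0035). Of 11 tested members of this list 5 rose and 2 fell, 1 without replicate 1, 2, 3 or 6. Of all genes 20.2% rose and 32.4% fell. The list median of 0.051 turned to -0.045 without replicate 4. Ribosomal protein, Npm1 and Eef1a1 mRNAs have many processed pseudogenes and the snoRNA host genes overlap other transcripts, so the counting of shared reads bears on their levels.

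More genes of the unfolded protein and integrated stress response rose than fell in set 8 with the guide. Of 29 tested members 16 rose and 3 fell, against 20.2% and 32.4% of all genes, with a median of 0.24. The count of members that fell was 6 without replicate 4 and 1 without replicate 2, 5 or 6. In activator-only libraries 3 members were higher and 11 lower, against 19.9% and 25.9% of all genes there, with a median of -0.07. The difference between the arms was above 0 for 19 of 29 members, against 9.42% of all genes. Trib3, a pseudokinase gene induced by ATF4 and CHOP, was at 198, 197 and 197 CPM in set 7 and 333, 383 and 373 CPM in set 8. The sets did not overlap, with a difference of 0.87 (SE 0.05, adjusted p = 1.7e-09), whereas activator-only libraries were at 380.2, 388 and 327 and 388, 366 and 369.8 CPM and the arms differed by 0.83 (SE 0.08, adjusted p = 4.8e-07). Ppp1r15a, which encodes GADD34 and restores eIF2alpha, was at 278, 287 and 298 CPM in set 7 and 451, 502 and 454 CPM in set 8, with 0.70 (SE 0.048, adjusted p = 1e-08) and an arm difference of 0.76 (adjusted p = 0.0013). Herpud1, a component of ER-associated degradation, was at 208, 199 and 202 CPM in set 7 and 298, 312 and 316 CPM in set 8, a rise of 0.60 (SE 0.043, adjusted p = 1.6e-08) with no overlap. In activator-only libraries it fell, at 399, 359.9 and 319 and 293, 269.5 and 274 CPM, a difference of -0.36 (adjusted p = 3.2e-05), and the arms differed by 0.96 (SE 0.081, adjusted p = 1.4e-07). The chaperone gene Dnajc3 fell in set 8 by 0.26 (adjusted p = 0.0014). The cystine transporter gene Slc7a11, a target of ATF4, also moved in opposed directions, 0.37 (adjusted p = 1.7e-05) with the guide and -0.46 (adjusted p = 1.7e-07) without, an arm difference of 0.83 (SE 0.068, adjusted p = 1.2e-07).

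The ER stress element, a motif of 19 letters with CCAAT and CCACG at its ends and 9 bases of any kind between, was found before the start site of 6 of 27 matched members (22.2%), against 0.21% of tested genes in the promoter table and 0.13% of all genes there. It was chosen after the values had been seen. The windows set the shared letters of 4 members beside their values, which differ in sign.
Dnajc3 (chr14:118937806-118937865, plus strand, match 87 to 105 bases before the start site): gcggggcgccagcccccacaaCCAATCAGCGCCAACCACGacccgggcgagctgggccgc
Pdia6 (chr12:17266470-17266529, plus strand, match 80 to 98 bases before the start site): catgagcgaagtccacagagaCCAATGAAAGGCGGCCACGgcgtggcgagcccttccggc
Hsp90b1 (chr10:86705513-86705572, minus strand, match 89 to 107 bases before the start site): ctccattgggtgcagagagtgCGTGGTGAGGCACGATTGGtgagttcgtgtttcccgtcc
Creld2 (chr15:88819499-88819558, plus strand, match 108 to 126 bases before the start site): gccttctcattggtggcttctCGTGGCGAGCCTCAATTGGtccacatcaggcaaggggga
The differences of Pdia6, Hsp90b1 and Creld2 in set 8 were -0.094 (adjusted p = 0.17), 0.24 (adjusted p = 0.0036) and -0.28 (adjusted p = 0.016).

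Other stress lists had members on both sides. Of all genes 32.4% fell and 20.2% rose, and the arm test passed for 9.42% above 0 and 12.3% below. Of 16 tested heat shock genes 8 fell and 6 rose, and the arm test passed for 2 of 16 members above 0 and 4 below. Hsp90aa1, Cryab and Bag3, a chaperone, a small heat shock protein and a co-chaperone, differed by -0.52 (adjusted p = 6.2e-07), -0.99 (adjusted p = 6.3e-07) and -0.41 (adjusted p = 2.5e-06), and the first and second between the arms by -0.38 (adjusted p = 0.00074) and -0.58 (adjusted p = 0.0088). Hspa8, the constitutive HSC70, rose by 0.37 (adjusted p = 3.1e-06) as deposited but stood at -0.028 with quantile scaling. Of 24 tested genes of oxidative stress and metallothioneins 11 fell and 8 rose, 9 and 10 with median-of-ratios scaling, and the arm test passed for 5 of 23 members above 0 and 4 below. The zinc exporter gene Slc30a1 and the glutathione peroxidases Gpx4 and Gpx1 differed by -0.73 (adjusted p = 5.6e-08), -0.48 (adjusted p = 4.2e-07) and -0.66 (adjusted p = 7.5e-07), and between the arms by -0.30 (adjusted p = 0.016), -0.33 (adjusted p = 0.0017) and -0.36 (adjusted p = 0.046). Osgin1, a target of NRF2, rose from 10.5 ± 0.732 to 26.2 ± 1.49 CPM, with 1.27 (adjusted p = 3e-08). Of 19 tested p53 targets 7 rose, 4 without replicate 5, and 7 fell. Gadd45b, Bax and Sesn1 differed by -0.88 (adjusted p = 1.6e-06), -0.47 (adjusted p = 3.5e-05) and -0.53 (adjusted p = 0.00011), and Bbc3, the BH3-only gene also called Puma, rose by 0.77 (adjusted p = 3.9e-07). The arm test passed for 4 of 19 members above 0 and 4 below, with -0.37 (adjusted p = 0.013) for Bax, -0.57 (adjusted p = 0.0014) for Sesn1 and 0.33 (adjusted p = 0.024) for Bbc3.

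Txnip had the smallest p of all genes in both tests. It encodes thioredoxin-interacting protein, which restrains glucose uptake and is induced by glucose through MondoA and ChREBP. It was at 238, 248 and 256 CPM in set 7 and 19.5, 15.9 and 18.1 CPM in set 8. Set 7 with the guide stood alone, since activator-only libraries were at 11.3, 12.2 and 13.99 CPM in set 7 and 16.4, 19.99 and 16.6 CPM in set 8. The set difference was -3.76 (SE 0.068, adjusted p = 3.6e-15) with the guide and 0.48 (adjusted p = 0.0002) without, and the arms differed by -4.24 (SE 0.13, adjusted p = 8.8e-15).

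More glycolysis genes rose than fell in set 8, and most nuclear genes of the respiratory chain fell. Of 23 tested genes of glycolysis and pyruvate metabolism 13 rose and 3 fell, 1 without replicate 5, with a median of 0.21. Of all genes 20.2% rose and 32.4% fell. The summed level of the list overlapped, at 11355 to 12753 CPM in set 7 and 12703 to 16067 CPM in set 8. Eno2, the neuronal enolase, was at 39.3, 37.4 and 32.0 CPM in set 7 and 99.8, 76.0 and 88.6 CPM in set 8, with no overlap and a difference of 1.27 (SE 0.09, adjusted p = 1.5e-08). Gpi1 and Pfkp, a hexose phosphate isomerase and a phosphofructokinase, rose by 0.63 (adjusted p = 5.4e-07) and 0.46 (adjusted p = 1.2e-06), and Aldoc, an aldolase, fell by 0.67 (adjusted p = 0.0015). In activator-only libraries the list was higher still (17 higher and 2 lower, median 0.43), where 19.9% of all genes were higher and 25.9% lower. The arms differed below 0 for 10 members, against 12.3% of all genes. Of 30 tested hypoxia-inducible genes 14 rose and 5 fell, 3 without replicate 2 or without replicate 4, beside the same 20.2% and 32.4%. Ero1a, the ER oxidase, was at 265, 241 and 259.7 CPM in set 7 and 450.4, 457 and 429 CPM in set 8, with 0.80 (SE 0.046, adjusted p = 1.8e-09) and no overlap. Stc2, which encodes stanniocalcin-2, and Vegfa, the vascular growth factor gene, differed by 0.72 (adjusted p = 7e-09) and 0.67 (adjusted p = 1e-08), and the collagen lysyl hydroxylase gene Plod1 by -0.58 (adjusted p = 2.8e-07). The arm test passed for 4 of 30 members above 0 and 6 below, against 9.42% and 12.3% of all genes. It gave 0.35 (adjusted p = 0.00039) for Ero1a, 0.60 (adjusted p = 9.9e-06) for Stc2 and 0.42 (adjusted p = 9.6e-05) for Vegfa. The hypoxia response core ACGTG, on either strand, was present before the start site of 14 of 23 matched hypoxia-inducible genes (60.9%) and 11 of 22 matched glycolysis genes (50%), against 18.5% of all genes in the promoter table and 25% of the 10023 tested genes found there.

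Of the 13 mitochondrially encoded mRNAs 7 fell, against 32.4% of all genes. The called share of 53.8% was near the 52.7% of all genes. Lower without overlap were 5 of the 13, against 36.2% of all genes. Their summed level overlapped, at 13234 to 14178 CPM in set 7 and 13602, 11818 and 10546 CPM in replicates 4, 5 and 6 of set 8. The complex I subunit genes mt-Nd1 and mt-Nd5 fell from 1442 ± 34.2 to 944 ± 82.6 CPM and from 699.9 ± 10.7 to 486 ± 40.3 CPM, differences of -0.62 (adjusted p = 1.9e-07) and -0.53 (adjusted p = 4.9e-07), and the complex IV gene mt-Co2 differed by -0.35 (adjusted p = 1.8e-05). In activator-only libraries 3 were higher and 1 lower, against 19.9% and 25.9% of all genes there, with a median of 0.068. The arms differed below 0 for 8 of 13, against 12.3% of all genes. The values were -0.40 (adjusted p = 0.0028) for mt-Nd1, -0.55 (adjusted p = 0.00028) for mt-Nd5 and -0.79 (adjusted p = 0.00012) for mt-Co2. Of 28 nuclear genes of the respiratory chain 21 fell, against 32.4% of all genes, with a median of -0.27. Sdhb of complex II, Ndufa4 and Cycs, which encodes cytochrome c, differed by -0.45 (adjusted p = 4e-07), -0.53 (adjusted p = 6.1e-07) and -0.51 (adjusted p = 8.9e-07). In activator-only libraries 16 of the 28 fell, against 25.9% of all genes there, with a median of -0.14. The arm test passed below 0 for 3 of 28, a share near the 12.3% of all genes, and for 0 above. It gave -0.32 (adjusted p = 0.0028) for Cycs.

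**Figure D4:**
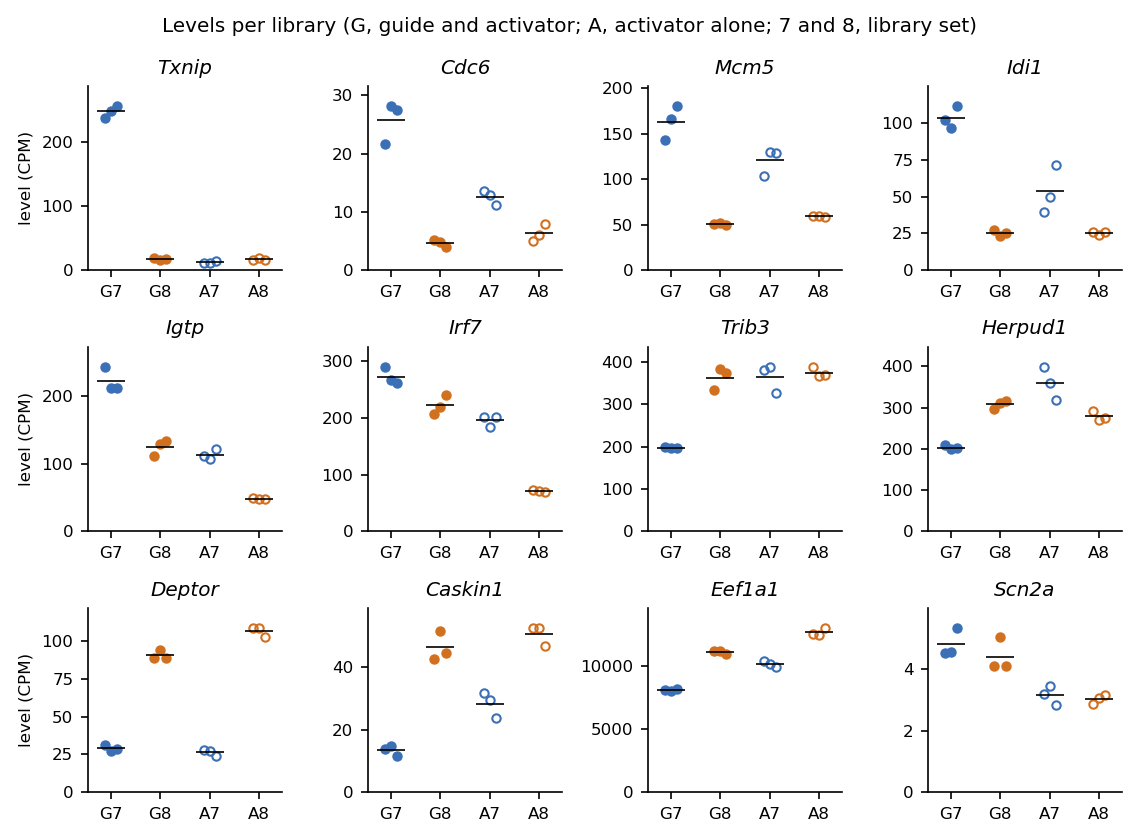
Levels in CPM of 12 genes in each library, filled for guide-treated (G) and open for activator-only (A) libraries of set 7 (blue) and set 8 (orange), with a line at each mean of 3. Txnip is high in G7 alone, Mcm5 and Idi1 are lower in both set 8 groups, Trib3 is low in G7, and Scn2a overlaps between the sets.

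More feedback genes of MAP kinase signalling rose than fell in set 8. Of 18 tested members 11 rose and 4 fell, against 20.2% and 32.4% of all genes, with a median of 0.28. Dusp4, a nuclear phosphatase of ERK, was at 434, 439 and 405 CPM in set 7 and 798, 828 and 842 CPM in set 8, with no overlap and a difference of 0.95 (SE 0.044, adjusted p = 2.8e-10). Dusp6 and Spry1, an ERK phosphatase and a Sprouty inhibitor, rose by 0.47 (adjusted p = 5.5e-07) and 0.88 (adjusted p = 1.9e-06), while the phosphatase gene Dusp1 fell by 0.51 (adjusted p = 3.2e-05). In activator-only libraries the list median was 0.25. The arms differed below 0 for 11 members and above for 3, against 12.3% and 9.42% of all genes. The values were -0.41 (adjusted p = 6.7e-05) for Dusp4, -0.70 (adjusted p = 0.00076) for Spry1, -0.24 (adjusted p = 0.0068) for Dusp6 and -0.43 (adjusted p = 0.015) for Dusp1. Immediate early genes had a called share of 48.1%, 7 of 27 higher and 6 lower, beside the 52.7% of all genes. Between the arms 12 of 25 were below 0, against 12.3% of all genes. Egr1, a zinc finger factor of this class, was at 272, 260.0 and 247 CPM in set 7 and 245, 247 and 266 CPM in set 8, which overlapped, a difference of -0.04 (adjusted p = 0.50). Without the guide it was at 112, 101 and 108 CPM in set 7 and 213, 217 and 192 CPM in set 8, and the arms differed by -0.99 (SE 0.075, adjusted p = 4.2e-08). Nab2, a corepressor of EGR factors, differed by 0.25 (adjusted p = 0.0057) with the guide and 1.21 (adjusted p = 1.6e-11) without, an arm difference of -0.96 (adjusted p = 4.9e-07), and Klf10, a factor of the Krüppel-like family, by -0.98 (adjusted p = 4.8e-09) and 0.46 (adjusted p = 1e-05), with -1.4446 (adjusted p = 4.2e-09) between the arms. AP-1 letters (TGACTCA) were found before the start site of 0 of 20 matched immediate early genes and 0 of 15 MAP kinase feedback genes, against 3.85% of tested genes, which says only that they are not in this window. CRE letters (TGACGTCA) were found in 2 of 20 and 3 of 15, against 3.13% of tested genes.

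The ID proteins, HLH inhibitors induced by BMP signalling, fell together. Id2 was at 19.9, 20.3 and 22.3 CPM in set 7 and 3.71, 2.58 and 3.20 CPM in set 8, with no overlap and a difference of -2.55 (SE 0.14, adjusted p = 1.1e-09). Id3 and Id1 fell from 82.2 ± 7.04 to 23.5 ± 2.97 CPM and from 66.0 ± 5.596 to 35.1 ± 1.73 CPM, differences of -1.79 (SE 0.086, adjusted p = 3.7e-10) and -0.90 (SE 0.07, adjusted p = 4.4e-08). Ski, a corepressor of SMAD proteins, rose by 0.74 (adjusted p = 2.2e-09), with an arm difference of 0.33 (adjusted p = 0.0035). The whole TGF-beta and BMP list had 7 of 15 members lower and 3 higher, 5 and 5 with median-of-ratios scaling, which turned its median of -0.069 to 0.017. As deposited 32.4% of all genes were lower and 20.2% higher. Between the arms 3 members passed above 0 and 1 below, against 9.42% and 12.3% of all genes. Of 17 tested clock genes 7 rose and 3 fell, 1 without replicate 2 or without replicate 4, against 20.2% and 32.4% of all genes. Bhlhe40, a repressor in the clock, Nr1d2, which encodes REV-ERB beta, and the output gene Dbp rose by 0.43 (adjusted p = 1.9e-06), 0.37 (adjusted p = 6.6e-06) and 0.78 (adjusted p = 2e-05). Bmal1, the core activator, fell by 0.28 (adjusted p = 0.0045) but did not pass with quantile scaling. The arms differed above 0 for 6 of 17 clock genes, against 9.42% of all genes, with 0.54 (adjusted p = 2.3e-06) for Nr1d2 and 0.56 (adjusted p = 0.0046) for Dbp.

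Of 24 tested genes of sympathetic identity 9 fell and 7 rose, where 32.4% and 20.2% of all genes did. Between the arms the test passed for 3 of 23 members above 0 and 6 below, where it did so for 9.42% and 12.3% of all genes. The RNA-binding protein gene Elavl4 and the T-box gene Tbx2 differed by -0.79 (adjusted p = 4.3e-08) and -0.60 (adjusted p = 8.5e-06), and Chgb, the secretory granule protein chromogranin B, rose from 91.5 ± 6.44 to 177 ± 10.5 CPM, with 0.95 (adjusted p = 3e-09). The arms differed by -0.54 (adjusted p = 0.00047) for Elavl4. Of 20 tested genes of neuronal differentiation and neurites 7 fell and 5 rose, 4 and 5 with median-of-ratios scaling, shares near the 32.4% and 20.2% of all genes. Id2 and Id3 belong to this list too. The adhesion molecule genes Ncam1 and L1cam moved in opposite directions, -0.56 (adjusted p = 4e-08) and 0.73 (adjusted p = 2.4e-09), and L1cam differed between the arms by 0.48 (adjusted p = 1.2e-05). Of 19 tested matrix and adhesion genes 10 fell and 5 rose, 3 without replicate 6, beside the same 32.4% and 20.2%. The arm test passed for 5 of 18 members above 0 and 4 below, beside 9.42% and 12.3%. Sparc, a secreted matrix glycoprotein, fell from 1153 ± 10.3 to 696 ± 46.4 CPM, with -0.73 (SE 0.048, adjusted p = 7e-09). The collagen gene Col1a2 was at 15.1, 14.2 and 12.8 CPM in set 7 and 3.34, 1.74 and 1.92 CPM in set 8, with no overlap, a difference of -2.40 (adjusted p = 4.2e-08) and an arm difference of -1.58 (adjusted p = 0.00091). Ccn2, a matricellular factor, was at 7.98, 7.61 and 6.48 CPM in set 7 and 1.89, 2.25 and 2.30 CPM in set 8, a difference of -1.57 (adjusted p = 9.9e-07). Without the guide it was at 0.249, 0.176 and 0.484 and 0.525, 1.25 and 1.07 CPM, and the arms differed by -2.40 (SE 0.32, adjusted p = 2.2e-05). Col18a1, a basement membrane collagen gene, rose by 1.09 (adjusted p = 5.6e-09), with 0.30 (adjusted p = 0.046) between the arms.

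Scn2a, the voltage-gated sodium channel gene named in the series title, was at 4.53, 4.56 and 5.33 CPM in set 7 and 4.09, 5.02 and 4.10 CPM in set 8, or 76 to 96 and 64 to 78 reads per library. The sets overlapped, and the difference was -0.12 (SE 0.16, adjusted p = 0.56). In activator-only libraries it was at 3.18, 3.46 and 2.84 CPM and 2.86, 3.05 and 3.16 CPM, and the arms differed by -0.064 (SE 0.22, adjusted p = 0.87). At this depth no set difference was detectable for it. Of 8 tested sodium channel genes 3 rose and 1 fell, a called share of 50% beside the 52.7% of all genes. Scn9a, the channel Nav1.7, was at 45.9, 41.2 and 47.5 CPM in set 7 and 36.9, 34.0 and 39.7 CPM in set 8, a difference of -0.28 (adjusted p = 0.0052). The alpha subunit genes Scn3a and Scn4a lay below 4 CPM and differed by 0.76 (adjusted p = 0.013) and 0.66 (adjusted p = 0.042). Each lost its call when single libraries were left out, Scn3a without replicate 4 or 5 and Scn4a without any of 2 to 6. Scn8a differed by -0.15 (adjusted p = 0.074), which passed without replicate 5, and Scn3b by -0.19 (adjusted p = 0.27).

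Of 13 tested genes around Scn2a 5 rose, 8 without replicate 3 and 3 without replicate 4 or 5, and 3 fell. The called share was 61.5% beside 52.7% of all genes, of which 20.2% rose and 32.4% fell. Galnt3, a GalNAc transferase gene, was at 13.2, 10.9 and 13.7 CPM in set 7 and 33.9, 35.4 and 36.0 CPM in set 8, with no overlap and a difference of 1.45 (SE 0.095, adjusted p = 6.7e-09). Ttc21b, an intraflagellar transport gene, and Csrnp3 rose by 0.46 (adjusted p = 5.8e-05) and 0.73 (adjusted p = 0.00083), and Ifih1, the RNA sensor MDA5, fell by 0.37 (adjusted p = 5.9e-05), with 0.33 (adjusted p = 0.024) between the arms. Of 14 tested potassium and HCN channel genes 7 rose and 1 fell, a called share of 57.1% beside the same 52.7%. Their median was 0.57, or 0.33 without replicate 5. Kcnh2, the hERG channel, rose from 116 ± 6.33 to 173 ± 3.51 CPM, with 0.57 (SE 0.049, adjusted p = 1.3e-07) and an arm difference of 0.56 (adjusted p = 4.8e-06). The pacemaker channel gene Hcn4 and the two-pore channel gene Kcnk3 rose by 1.26 (adjusted p = 5.4e-06) and 0.84 (adjusted p = 7.6e-05). The arm difference was 0.67 (adjusted p = 0.019) for Hcn4. Of 18 tested genes of calcium channels, stores and pumps 9 rose and 2 fell, 1 without replicate 6 or with median-of-ratios scaling. The called share was 61.1% beside the same 52.7%. Atp2a3, the SERCA3 pump, was at 15.96, 12.7 and 13.2 CPM in set 7 and 43.4, 52.9 and 45.4 CPM in set 8, with no overlap and a difference of 1.73 (SE 0.099, adjusted p = 1.7e-09). Cacnb3, a beta subunit, and Cacna1c, the channel Cav1.2, rose by 0.90 (adjusted p = 2.4e-08) and 0.33 (adjusted p = 5.4e-05), and the ryanodine receptor gene Ryr1 fell by 0.53 (adjusted p = 0.0073). Cacna1c fell without the guide, by -0.36 (adjusted p = 5.7e-06), and the arms differed by 0.69 (adjusted p = 9.3e-07), against 0.57 (adjusted p = 0.00018) for Cacnb3 and 0.88 (adjusted p = 8.2e-05) for Atp2a3.

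The largest rises were seen in genes of several kinds. Caskin1, a scaffold at synapses, was at 14.03, 14.8 and 11.6 CPM in set 7 and 42.6, 51.7 and 44.7 CPM in set 8, a difference of 1.75 (SE 0.10, adjusted p = 1.7e-09). Deptor, the inhibitor of mTOR complexes, was at 31.0, 27.4 and 28.5 CPM in set 7 and 88.9, 93.6 and 88.8 CPM in set 8, a difference of 1.63 (SE 0.063, adjusted p = 4.2e-11). Paqr3, a Golgi protein that tethers Raf, was at 26.7, 23.6 and 23.1 CPM in set 7 and 67.7, 82.6 and 72.2 CPM in set 8, a difference of 1.58 (SE 0.08, adjusted p = 5.6e-10). The sets did not overlap for any of these, and Caskin1 and Paqr3 were less separated without the guide, with arm differences of 0.92 (adjusted p = 0.00018) and 1.01 (adjusted p = 1.8e-06), where Deptor gave -0.36 (adjusted p = 0.0077). The other large rises came from genes at low levels: Pdzd7 1.84 (adjusted p = 6e-07), Gpr15lg 1.83 (adjusted p = 5.1e-06), Popdc2 1.81 (adjusted p = 1.1e-07), Ahnak2 1.61 (adjusted p = 4e-07), Camk2b 1.59 (adjusted p = 1.1e-06), Kbtbd11 1.58 (adjusted p = 4.1e-06) and Capn6 1.52 (adjusted p = 1.4e-07). Camk2b encodes a subunit of CaM kinase II, and was at 5.38, 3.06 and 3.78 CPM in set 7 and 12.2, 12.7 and 14.1 CPM in set 8, with an arm difference of 1.27 (adjusted p = 0.00073). Kbtbd11 rose further without the guide, at 8.98, 8.08 and 9.56 and 49.3, 50.1 and 60.2 CPM, with -0.94 (adjusted p = 0.0053) between the arms. The 7S RNA feature Rn7s1 was at 17.4, 0 and 11.3 CPM in set 7 and 25.5, 27.4 and 24.0 CPM in set 8. It was listed at 0 in 1 of these libraries and in 2 activator-only libraries of set 8, its difference of 2.47 (adjusted p = 0.021) did not pass under 4 alternatives, and such RNA carries no polyA tail. Rn18s-rs5 differed by 0.70 (adjusted p = 0.027) and did not pass without replicate 3 or without replicate 6. Actg1, the gamma actin gene, rose by 0.52 (adjusted p = 1.1e-06), though quantile scaling left it short of the threshold. Its arm difference was 0.30 (adjusted p = 0.0079).

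Set differences were compared with those of activator-only libraries. Over 14342 genes tested in both, 4408 passed in the same direction in both arms and 258 in opposed directions, while 3007 passed with the guide alone and 1914 without it alone. Pearson's r of the differences across genes was 0.652, a description since genes are not independent. Of the genes that passed with the guide, 2328 (30.3%) also passed the test of the arms. Trim66, a chromatin reader gene, was at 95.1, 89.5 and 86.0 CPM in set 7 and 191, 187 and 182 CPM in set 8, and at 187, 188 and 185 and 181, 196 and 181 CPM without the guide. Its set difference was 1.04 (adjusted p = 3.3e-10) with the guide and -0.0077 (adjusted p = 0.91) without, and the arms differed by 1.05 (SE 0.064, adjusted p = 2.8e-09). Gab2, an adaptor protein gene, differed by 0.16 (adjusted p = 0.018) with the guide, which did not pass without replicate 2, 4 or 6, and -0.72 (adjusted p = 5.5e-10) without, an arm difference of 0.88 (adjusted p = 1.1e-07). Arhgef2, a microtubule-bound activator of RhoA, and Ptpru, a receptor phosphatase gene, rose with the guide, 0.38 (adjusted p = 2.4e-06) and 0.70 (adjusted p = 1.1e-07), and fell without, -0.31 (adjusted p = 2.2e-06) and -0.37 (adjusted p = 6e-05). Their arm differences were 0.68 (adjusted p = 1.1e-07) and 1.07 (adjusted p = 1.2e-07).

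Genes on the other side of this test had a lower set 8 with the guide or a smaller rise. Mest, an imprinted gene, was at 1027, 1059 and 962 CPM in set 7 and 503, 459 and 499 CPM in set 8. Without the guide it was at 525, 539 and 642 CPM in set 7 and 644, 655 and 687 CPM in set 8. It fell with the guide, -1.06 (adjusted p = 2.7e-10), and rose without, 0.23 (adjusted p = 0.004), an arm difference of -1.29 (SE 0.084, adjusted p = 4.2e-09). Galnt15 and Samd5 rose in both arms, 0.71 (adjusted p = 9.5e-08) and 0.44 (adjusted p = 2.2e-06) with the guide and 1.85 and 1.1202 without, with arm differences of -1.14 (adjusted p = 3.4e-07) and -0.68 (adjusted p = 6.4e-07). Lrig1, an inhibitor of receptor tyrosine kinases, overlapped between the sets with the guide, 0.073 (adjusted p = 0.24), and rose without, 0.76 (adjusted p = 1.4e-10), an arm difference of -0.68 (adjusted p = 7.4e-07).

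**Figure D5:**
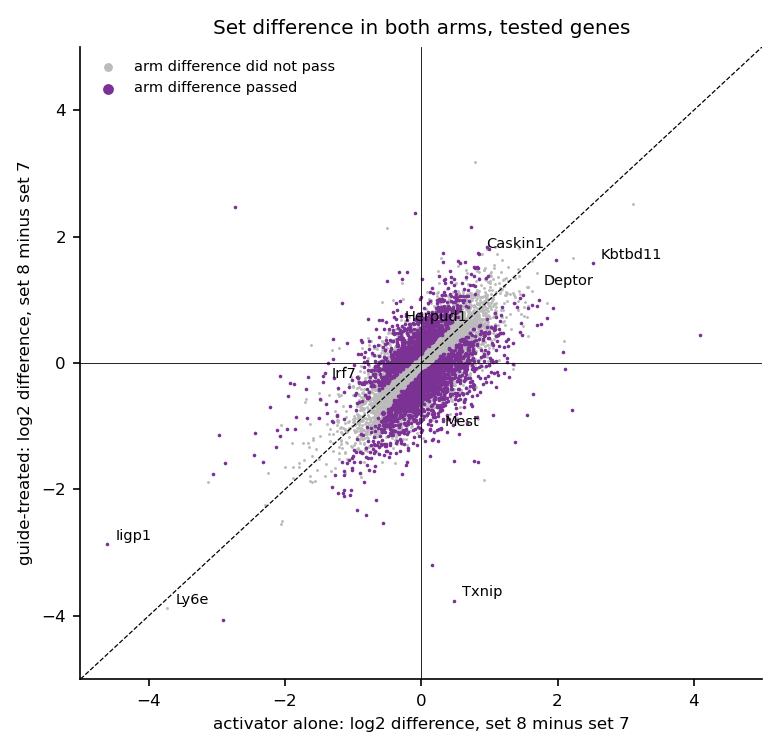
Log2 set difference of each gene tested in both arms, activator-only (horizontal) against guide-treated (vertical), purple where the difference between the arms passed, with a dashed line of equality. Genes spread along the line (r = 0.652), Txnip lies far below it, and Irf7 and Iigp1 lie above it.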

How the data were processed

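PolyA RNA was sequenced from Neuro2a cells. Per the submitters' processing notes, STAR 2.7.8a, featureCounts, DESeq2 1.44 and R 4.4 were used with mm39 and GRCm39, without stated roles. Per the file headers, the authors deposited CPM for 31553 features. The estimated depth was the inverse of the commonest CPM above 0, and since 70.8 to 73.2% of values lay within 0.01 of whole reads, no count test was run. The tool that made the CPM, the use of strand and the handling of reads with several alignments are not given in the sources used here. Genes with at least 0.5 CPM in 3 of 6 guide-treated libraries, or 6 of 12 for the arms, were fitted with limma 3.58.1 (R 4.3.3, lmFit, eBayes with trend) on log2(CPM + 0.5) as deposited, after the 2 plasmid features had been left out. The fit was also run on simulated data in which few genes were changed, in both directions. Far more genes passed here, so that run cannot test how scaling affects the calls. Alternatives covered pseudocount, filter, scaling, variance model, single libraries, a replicate block and the threshold. Promoters came from RefSeq (GRCm38.p6), and no gene coordinates of the files' build were used. Python 3.11.15 with pandas 2.3.3, numpy 2.4.6 and matplotlib 3.10.9 was used.

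The members and 37 gene lists (801 genes) were chosen with earlier results of these data known. Named genes were the 12 largest rises and falls that passed, with no overlap and at least 5 CPM on average (predicted, clone and pseudogene symbols aside, as for the arm difference), and in 29 lists called more often than all genes up to 3 members with the smallest p in the main direction and 1 opposed. Added to these were all tested sodium channel genes, the 8 smallest p-values of the arm difference per direction and the 5 highest genes that passed. Some genes that this rule names are not reported here. Hand2, Gata2, Ret, Hand1, Erbb3, Slc1a3, Kdr, Vim, Pdia6, Hsp90b1, Creld2, Tgtp2, Igtp, Irgm2, Gbp5 and Gbp7 were named outside this rule, after their values had been seen.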

Additional observations from a re-analysis of the deposited data

Results flagged for a closer look

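For 93 of the 148 named genes reported here the set difference itself differed between the arms by limma (adjusted p under 0.05), 46 above 0 and 47 below, where a value above 0 means that set 8 stood higher relative to set 7 with the guide than with the activator alone. Since the named genes were in part chosen by this test, the share is a description. All values are differences of log2 differences.

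Far below 0 were Txnip -4.24, Ccn2 -2.40, Col1a2 -1.58, Klf10 -1.445, Cdc6 -1.39, Mest -1.29, Ly6a -1.16, Galnt15 -1.14 and Slc25a10 -1.05. Between -1 and -0.5 lay Egr1 -0.99, Idi1 -0.98, Acat2 -0.97, Nab2 -0.96, Kbtbd11 -0.94, Hsd17b7 -0.84, Sting1 -0.80, mt-Co2 -0.79, Neat1 -0.71, Spry1 -0.70, Lrig1 -0.68, Samd5 -0.68, Mcm6 -0.66, Mcm5 -0.65, Mcm4 -0.65, Il6 -0.59, Cryab -0.58, Sesn1 -0.57, mt-Nd5 -0.55, Elavl4 -0.54 and Ifi27 -0.53. Closer to 0 lay Odc1 -0.50, Cxcl10 -0.44, Psmb10 -0.43, Dusp1 -0.43, Dusp4 -0.41, mt-Nd1 -0.40, Cyp51 -0.38, Hsp90aa1 -0.38, Bax -0.37, Gpx1 -0.36, Deptor -0.36, Csf1 -0.34, Gpx4 -0.33, Cycs -0.32, Slc30a1 -0.30, Dusp6 -0.24 and Irf1 -0.24.

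On the other side, the smallest values were Rpl5 0.20, Npm1 0.21, Rpl3 0.25, Eef2 0.30, Actg1 0.30, Col18a1 0.30, Cenpf 0.31, Ifih1 0.33, Bbc3 0.33, Ski 0.33 and Ero1a 0.35. Larger ones were Stat2 0.40, Vegfa 0.42, L1cam 0.48, Snhg1 0.49, Nr1d2 0.54, Kcnh2 0.56, Dbp 0.56, Cacnb3 0.57, Stc2 0.60, Snhg12 0.61, Hcn4 0.67, Arhgef2 0.68, Cacna1c 0.69, Capn6 0.70 and Ppp1r15a 0.76. The largest were Popdc2 0.81, Slc7a11 0.83, Trib3 0.83, Pdzd7 0.87, Gab2 0.88, Atp2a3 0.88, Ifit3 0.91, Caskin1 0.92, Gbp3 0.92, Herpud1 0.96, Paqr3 1.01, Trim66 1.05, Ptpru 1.07, Irf7 1.15, Camk2b 1.27, Zbp1 1.30, Oas2 1.436, Phf11d 1.52, Iigp1 1.74 and Rn7s1 5.2.

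Some arm differences did not pass once 1 library had been left out. The value of Ly6a did not pass without guide-treated replicate 1, 2, 3 or 4 or without activator-only replicate 1, 2, 4, 5 or 6. For Irf1 it did not pass without guide-treated replicate 1, 2, 3, 4 or 5 or without activator-only replicate 1, 4 or 6. The arm difference of Npm1 did not pass without guide-treated replicate 1, 2, 4 or 5 or without activator-only replicate 1, 2, 4 or 5. That of Gpx1 did not pass without guide-treated replicate 1, 2, 3, 4 or 5 or without activator-only replicate 1, 2, 4, 5 or 6. The value of Rn7s1 did not pass without activator-only replicate 1, 4 or 6 or without guide-treated replicate 2. For Rpl5 it did not pass without activator-only replicate 1 or 5 or without guide-treated replicate 2 or 5. The arm difference of Bbc3 did not pass without activator-only replicate 1 or without guide-treated replicate 3 or 6. That of Cyp51 did not pass without activator-only replicate 1 or without guide-treated replicate 5. The value of Col18a1 did not pass without activator-only replicate 1, 2, 4, 5 or 6 or without guide-treated replicate 2, 3, 5 or 6. For Cenpf it did not pass without guide-treated replicate 2 or 4 or without activator-only replicate 2 or 4. The arm difference of Ifih1 did not pass without guide-treated replicate 2 or 5 or without activator-only replicate 3, 5 or 6.

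Rn7s1 is listed at 0 in 3 of the 12 libraries.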

How the results depend on the processing

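The counts of genes higher and lower in set 8 lay at 2615 to 2808 and 4185 to 4489 when each guide-treated library was left out in turn. Asking also for at least a 1.5-fold difference left 948 genes higher and 1470 lower. The arm difference, at 1357 genes above 0 and 1775 below, had 1094 to 1432 and 1317 to 1851 when each of the 12 libraries was left out. With a replicate block that ties guide-treated and activator-only libraries by number, it was called for 1273 genes above and 1645 below. The labels do not say that these numbers mark a shared culture or day. Deviations of same-numbered libraries from their group means correlated at -0.079 to 0.022. A correlation over all tested genes, most of whose deviations may be noise, cannot decide whether a culture or day was shared. Median-of-ratios scaling turned the medians of the interferon signalling and TGF-beta lists to 0.030 and 0.017 and the value of Egr1 to 0.045. Quantile scaling gave 0.0096 for interferon signalling, -0.028 for Hspa8 and an arm difference of 0.071 for Scn2a. Without a filter the p53 and heat shock medians became 0.055 and 0.027. Leaving out single guide-treated libraries gave medians of -0.045 to 0.316 for the nuclear retained RNAs. For Scn2a, leaving out single libraries gave arm differences of -0.15 to 0.0062. A pseudocount of 0.1 gave an arm difference of 0.52 for Ly6a. The causes of these turns were not tested. Genes below about 4 CPM, such as Scn3a and Scn4a, rest on few reads, and with 3 libraries against 3 an exact permutation test of one gene cannot go below p = 0.1.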
